A study of Mus musculus with 28 samples.

Results

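The genes described here encode subunits, assembly factors and activators of the proteasome. They are the 44 of the 22552 listed genes whose symbol begins with Psma, Psmb, Psmc, Psmd or Psme followed by a digit and that stand in all 4 deposited expression tables, with names ending in -ps left out. By role they are 8 genes of the alpha ring, 7 of the constitutive beta ring, 3 of the immunoproteasome, 1 of the thymoproteasome, 6 ATPases of the cap, 3 other subunits of the cap base, 8 subunits of the cap lid, 3 assembly chaperones with Psmd names and 4 activators. Psmc3ip, the last of the 44, matches by its name only and encodes a cofactor of meiotic recombination. The expression programs passed every gene of the list with the status OK in each of the 4 tables.

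The proteasome is the main protease for proteins tagged with ubiquitin. Its barrel-shaped core stacks outer alpha rings, which gate entry, and inner beta rings, in which Psmb5, Psmb6 and Psmb7 carry the cutting sites. A cap of ATPases and other subunits recognises, unfolds and feeds in the substrate, and core and cap together form the 26S proteasome. Interferon and immune cells replace the cutting subunits by Psmb8, Psmb9 and Psmb10, which form the immunoproteasome and change the peptides made for MHC class I. In skeletal muscle the pathway is best known for protein loss during atrophy and for the turnover of regulators during myogenesis.

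Satellite cells are the resident stem cells of muscle fibres. Mouse satellite cells gave the 28 samples, 18 of them libraries of polyA RNA, which are used here, and 10 chromatin samples, which were not analysed here. WT animals had a C57Bl/6 background, and SIRT1mKO animals, of the same background, combined a Pax7cre/+ knock-in with a floxed exon 4 of Sirt1, so the deletion depends on Cre made in cells that express Pax7. FI cells were sorted quiescent satellite cells (5 WT and 3 SIRT1mKO samples). Cul cells are labelled proliferating and were kept in Ham's F-10 with bFGF at 12.5 ng/mL and serum (FBS) at 20% (4 WT and 2 SIRT1mKO samples). Diff cells had 24 hours in medium with 2% horse serum (2 WT and 2 SIRT1mKO samples). Nothing in the labels ties the libraries of a group to different animals or says whether animals were pooled, so each p-value reflects the spread among these libraries alone, which could be technical. All 8 satellite cell markers were above 0 in every library.

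The expression values stand in 4 tables that were normalized separately. The FI table holds 3 WT FI and 3 SIRT1mKO FI libraries, the Cul table has 2 WT Cul and 2 SIRT1mKO Cul, and the Diff table has 2 WT Diff and 2 SIRT1mKO Diff. The remaining table, called here the table of WT states, holds 2 other WT FI and 2 other WT Cul libraries. Within a group the tables number the libraries by an index (0, 1, 2), which is used here as a name. The FI table held 28010691 to 65324684 fragments a library, the Cul table held 75674366 to 82590642, the Diff table held 71858446 to 82825550 and the table of WT states held 24254119 to 31643216. Levels are given as CPM, a share of the library's fragments after scaling within a table, and comparisons between genes as FPKM, which also divides by transcript length. Sirt1 itself was measured at 47.4 to 81.4 CPM in WT FI and 37.6 to 63.4 in SIRT1mKO FI of the FI table, at 62.2 to 66.8 and 33.8 to 46.9 in Cul, and at 28.2 to 52.1 and 28.8 to 41.4 in Diff. A value over the whole gene includes exons outside the deleted one and does not check the genotype labels.

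A set of proteasome genes was far lower in some libraries than in others of the same group. In the FI table Psma3, an alpha ring subunit, was at 5.31 CPM in WT FI index 0 against 121 and 90.1 in the other WT FI libraries, and at 5.79 in SIRT1mKO FI index 0 against 94.5 and 94.1. Index 0 was thus low in both genotypes alike. Psme2, Psma5, Psmb3, Psmb5, Psma4, Psmd11 and the very low Psmb11 were also at least 2-fold lower at index 0 in both genotypes, 8 of 43 genes (18.6%) with Psma3, against 5.02% of all genes tested. The spread between the 14 core subunits, as the SD of log2 FPKM, was 1.47 and 1.41 in the 2 libraries of index 0, 1.37 to 1.58 in the 4 libraries of the table of WT states, and 0.244 to 0.444 in the other 12 libraries. Psma3 was the lowest core subunit in all 6 libraries of wide spread. In WT Cul index 0 of the Cul table, by contrast, the core subunits lay between 187 FPKM (Psma1) and 348 FPKM (Psmb7), a narrow range for parts of 1 particle. Results that rest on these libraries are given below with and without them.

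**Figure D1:**
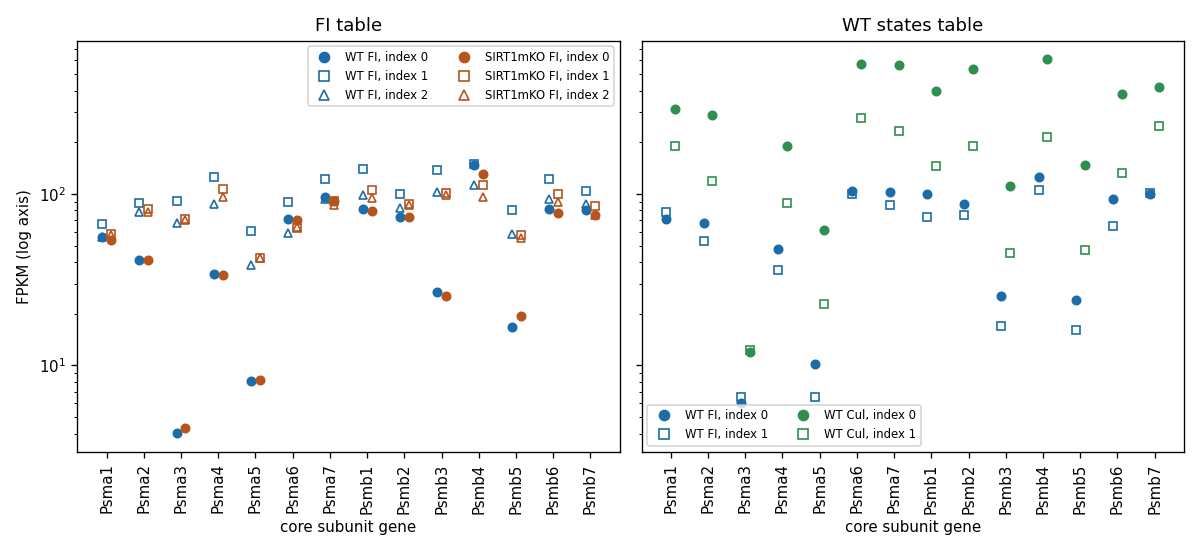
FPKM (log axis) of the 14 core subunits in each library of the FI table (left, 3 WT FI and 3 SIRT1mKO FI) and of the table of WT states (right, 2 WT FI and 2 WT Cul). Psma3, Psma5, Psmb3 and Psmb5 are low at index 0 of the FI table in both genotypes, and Psma3 is the lowest core subunit in all 4 libraries on the right.

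WT Cul against WT FI compares proliferating with quiescent satellite cells within the table of WT states. Genes of the 26S proteasome rose together: 22 of the 31 core and cap subunits passed the test as higher in WT Cul, none passed as lower, and their median log2 fold change was 1.82. Over all 42 proteasome genes tested, 26 passed as higher and 0 as lower (edgeR's quasi-likelihood test, Benjamini-Hochberg adjusted p under 0.05 over 14680 genes), while 12.6% of all genes passed as higher and 16% as lower. At an unadjusted p under 0.05, 35 of the 42 were called, all of them higher, against 44.3% of all genes in either direction. DESeq2 called 34 higher and 0 lower, with its share over all genes not given here. Estimates lay above 0 for 40 of the 42 and below 0 for Psmb8 and Psmb9, against 51.6% and 48.4% of all genes. The median over the 42 was 1.78, against 0.06 over all genes tested. Psma8 (2 to 12 fragments a library) and Psmb11 (1 to 9) were too low to test.

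Summed over the 31 subunits, the level was 2212 and 2020 CPM in the WT FI libraries and 9526 and 5498 CPM in the WT Cul libraries. The WT Cul libraries were both higher, but they also differed from each other: 27 of the 31 subunits were lower at index 1 than at index 0, by a median of 0.90 on the log2 scale. Of the 14680 genes tested, 7272 were lower at index 1, with a median difference of 0. All 31 subunits were higher in both WT Cul libraries than in both WT FI libraries, an order that 35.5% of all genes showed. Markers of differentiating muscle summed to 2496 CPM in WT Cul index 0 and 55.4 CPM in WT Cul index 1, a difference that moved with the higher level of index 0 and whose part in it was not tested.

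**Figure D2:**
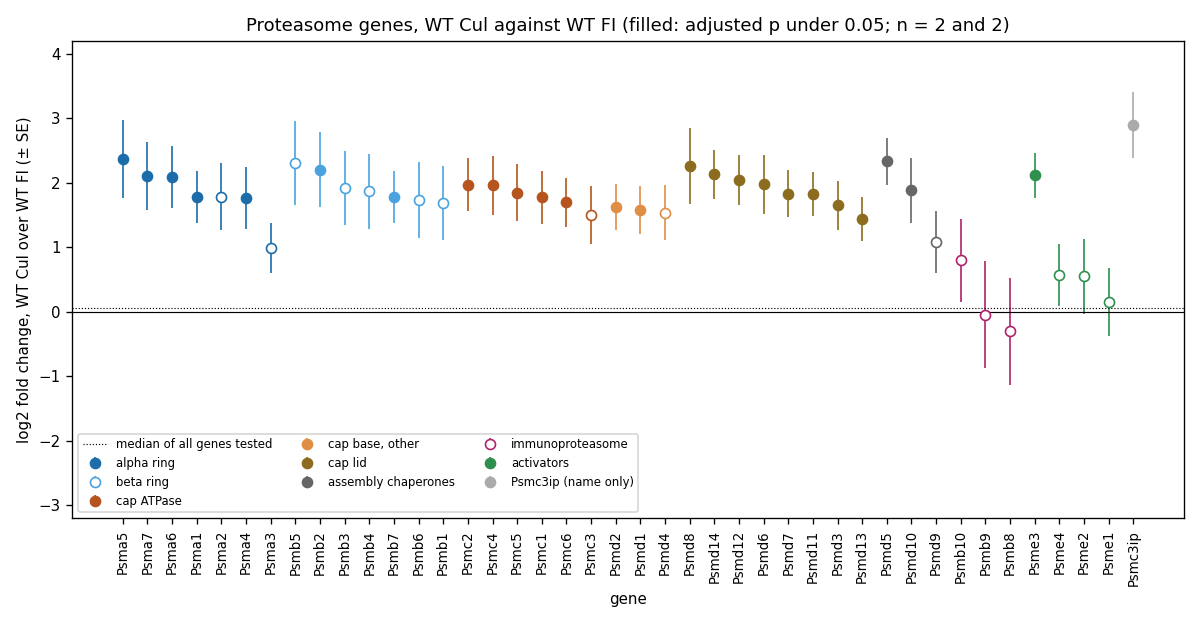
Log2 fold change of each tested proteasome gene in WT Cul over WT FI, with its standard error, by class (n = 2 and 2, table of WT states). Filled points passed at an adjusted p under 0.05. Core and cap subunits lie between 0.98 and 2.37, above the dotted median of all genes at 0.06, while Psmb8, Psmb9 and Psme1 lie near 0.

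In the alpha ring, 5 of 7 tested genes passed. Psma5 was at 11.2 and 7.15 CPM in WT FI and at 68.7 and 25.9 CPM in WT Cul, a log2 fold change of 2.37 ± 0.609 (SE; adjusted p = 0.0419). Psma3, the least changed of the ring, was at 8.01 and 8.58 CPM in WT FI and 16.0 and 16.8 CPM in WT Cul, a log2 fold change of 0.98 ± 0.387 that did not pass (adjusted p = 0.111). Neither gene's groups overlapped. Both belong to the genes that are low in these libraries. Between the WT FI of the FI table without index 0 and the WT Cul of the Cul table, Psma3 had a log2 fold change of 1.83 ± 0.278 (adjusted p = 0.00456).

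In the constitutive beta ring only Psmb2 and Psmb7 passed of 7, although all 7 estimates lay between 1.68 and 2.30. Psmb5, which carries the chymotrypsin-like site, was at 17.5 and 11.5 CPM in WT FI and at 108 and 35.1 CPM in WT Cul (log2 fold change 2.30 ± 0.645, adjusted p = 0.0514). Psmb6, the caspase-like subunit, was at 83.8 and 58.5 against 348 and 124 CPM (1.73 ± 0.594, adjusted p = 0.0823). Psmb7, the trypsin-like subunit, was at 82.5 and 83.8 against 355 and 214 CPM (1.77 ± 0.407, adjusted p = 0.0322). In each the WT Cul libraries were above the WT FI libraries and far apart from each other. Psmb5 belongs to the genes that are low in these libraries. With all libraries scaled together it was at 16.5 and 11.0 CPM in WT FI here, against 52.9 and 38.3 CPM in WT FI index 1 and 2 of the FI table. Psmb1, a beta subunit without a cutting site, had the lowest estimate of the ring at 1.68 ± 0.575 (adjusted p = 0.0821).

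In the cap, 15 of 17 subunits passed, against 7 of 14 in the core, a difference that was not tested. Of the genes given above as low at index 0 of the FI table, Psma3, Psma4, Psma5, Psmb3 and Psmb5 are core subunits. Among cap subunits only Psmd11 is. The part of these genes in the core and cap counts was not tested. Between WT FI of the FI table without index 0 and WT Cul of the Cul table, every core and cap subunit passed as higher. All 8 lid subunits passed, and so did 5 of 6 ATPases and 2 of the 3 other base subunits. Psmd8, a lid subunit, rose most among them, from 116 and 92.2 CPM to 728 and 265 CPM (2.25 ± 0.592, adjusted p = 0.0442), and Psmd13 rose least in the lid, from 68.3 and 65.4 to 204 and 157 CPM (1.43 ± 0.344, adjusted p = 0.035). The ATPases, which unfold the substrate, ran from Psmc2, at 74.3 and 70.7 against 352 and 217 CPM, with 1.97 ± 0.404 (adjusted p = 0.025) to Psmc3, at 141 and 133 against 508 and 269 CPM, with 1.50 ± 0.448, which did not pass (adjusted p = 0.0594). Psmd2, a scaffold subunit of the base, was at 109 and 102 CPM in WT FI and at 288 and 360 CPM in WT Cul (1.62 ± 0.355, adjusted p = 0.0282). It was 1 of the 4 subunits that were higher at index 1 than at index 0 of WT Cul. Psmd4, the base receptor for ubiquitin chains, was at 87.6 and 74.1 against 300 and 169 CPM and stood at the edge of the threshold (1.54 ± 0.426, adjusted p = 0.0504).

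Of the chaperones that help to assemble the base, 2 of 3 passed. Psmd5 was at 37.4 and 36.2 CPM in WT FI and at 218 and 151 CPM in WT Cul (2.33 ± 0.371, adjusted p = 0.0159, the smallest of the 42). Psmd9 was at 29.1 and 19.0 against 67.4 and 34.7 CPM and did not pass (1.09 ± 0.481, adjusted p = 0.146). Psmc3ip, the gene matched by name only, rose from 2.79 and 3.42 to 30.1 and 16.0 CPM (2.89 ± 0.514, adjusted p = 0.019).

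The activators, which open the core without the ATPase cap, did not share 1 course. Psme3, the nuclear PA28-gamma, rose from 79.2 and 69.2 CPM to 336 and 308 CPM (2.12 ± 0.35, adjusted p = 0.0168). Psme1 and Psme2, the interferon-induced PA28-alpha and PA28-beta, were at 39.9 and 29.7 against 54.8 and 22.4 CPM (0.15 ± 0.526, adjusted p = 0.852) and at 8.01 and 7.87 against 16.8 and 6.49 CPM (0.55 ± 0.578, adjusted p = 0.508). In both the groups overlapped. Psme2 belongs to the genes that are low in these libraries. With all libraries scaled together it was at 7.53 and 7.52 CPM in WT FI and 16.5 and 6.20 CPM in WT Cul here. In WT FI index 1 and 2 of the FI table it was at 50.2 and 37.1 CPM, and in WT Cul of the Cul table at 41.3 and 43.8 CPM. Between those other libraries its log2 fold change was -0.0467. Psme4, which encodes PA200, was at 133 and 222 against 189 and 335 CPM (0.57 ± 0.476, adjusted p = 0.408). The difference between activators was not tested.

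None of the 3 immunoproteasome genes passed in the table of WT states. Psmb8 was at 15.5 and 7.37 CPM in WT FI and at 15.2 and 3.29 CPM in WT Cul (log2 fold change -0.30 ± 0.831, adjusted p = 0.805). Psmb9 was at 7.05 and 3.03 against 7.76 and 2.03 CPM (-0.04 ± 0.825, adjusted p = 0.973). Psmb10 was at 20.2 and 13.3 against 44.3 and 13.9 CPM (0.80 ± 0.644, adjusted p = 0.388). For each of the 3 the groups overlapped, and index 0 was the higher library in both. Leukocyte markers, some of whose cells make these genes, summed to 314 and 193 CPM in the WT FI libraries and to 9.04 and 21.0 CPM in the WT Cul libraries. In bulk RNA, fewer cells of a type and less RNA per cell cannot be told apart.

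The remaining WT libraries gave another picture of Psmb8 and Psmb9. In the FI table Psmb9 was at 6.67, 5.25 and 7.49 CPM in WT FI, and in the Cul table at 0.577 and 0.706 CPM in WT Cul. Psmb8 was at 15.8, 8.71 and 14.8 CPM against 1.20 and 2.07 CPM. These levels come from separately scaled tables, so the raw fragments of the 5 libraries were joined and scaled together, a comparison chosen after seeing the data. In it all WT FI libraries come from 1 table and all WT Cul libraries from another, so state and table cannot be told apart, and WT Cul libraries differ between tables. It gave log2 fold changes of -2.97 ± 0.387 for Psmb9 (adjusted p = 0.00217) and -2.65 ± 0.437 for Psmb8 (adjusted p = 0.00432), the only genes of the 42 that passed as lower, where 32.6% of all genes did. Psmb10 was at 0.14 ± 0.204 (adjusted p = 0.588). With all 9 WT libraries joined, Psmb8 was at -1.13 ± 0.669 and Psmb9 at -1.05 ± 0.716, neither of which passed (adjusted p = 0.178 and 0.242). Leukocyte markers summed to 156 to 426 CPM in WT FI of the FI table and to 4.06 and 9.18 CPM in WT Cul of the Cul table, where 2 to 4 of the 11 were at 0. Their part in these differences was not tested.

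The 26S genes were also higher in WT Cul between these other libraries. With WT FI of the FI table against WT Cul of the Cul table, 30 of the 31 subunits passed as higher with a median of 1.83, and 35 of the 42 genes in all, where 27.6% of all genes did. Without index 0 of WT FI, 31 of the 31 passed with a median of 1.73, where 25.8% of all genes did. With the 9 libraries joined, 29 passed with a median of 1.85, where 25.7% of all genes did. Psme4 also passed between the FI and Cul tables (0.86 ± 0.213, adjusted p = 0.0163, and 1.02 ± 0.204, adjusted p = 0.00935, without index 0).

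In the table of WT states, leaving out 1 library leaves 1 in its group, so only effect sizes are given. Without either WT FI library the median over the 42 genes stayed above 0. Without WT Cul index 0 that median was 1.29, the lowest of the 4 such fits, and the log2 fold change of Psmb8 was -1.83. Markers of other cell types also differed between the groups. Fibroblast markers (6 of 6 listed) summed to 23304 and 16818 CPM in WT FI and to 404 and 1109 CPM in WT Cul, and pericyte and smooth muscle markers (5 of 5) to 11428 and 13679 against 1683 and 1459 CPM. In WT FI of the FI table the same lists summed to 1770 to 3801 and to 2382 to 5216 CPM. Their part in the rise of the 26S genes was not tested. Satellite cell markers (8 of 8) summed to 2115 to 2395 CPM in WT FI of the table of WT states and to 5057 to 6971 CPM in WT FI of the FI table.

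**Figure D3:**
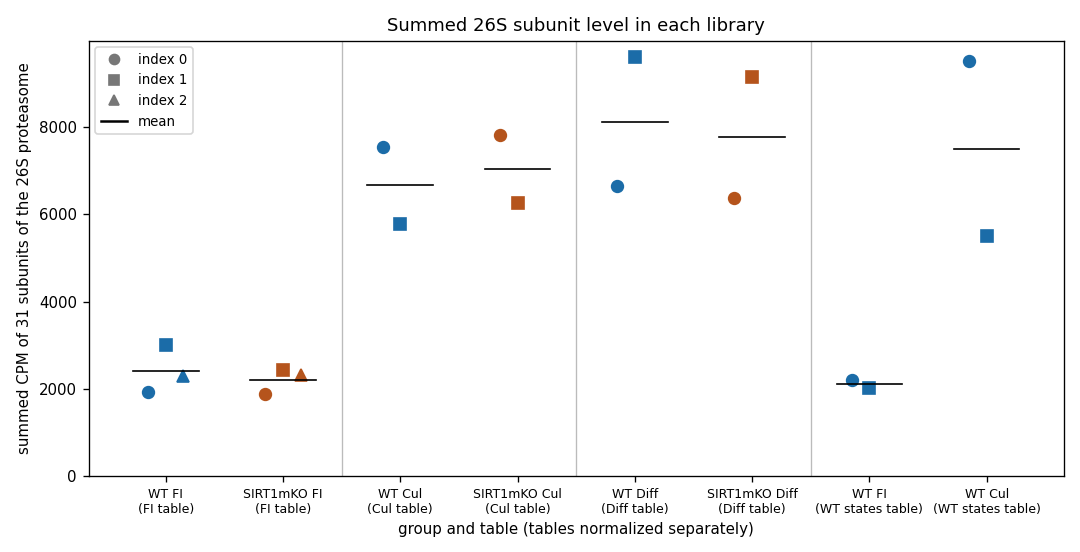
Summed CPM of the 31 core and cap subunits in each of the 18 libraries, by group and table (blue WT, orange SIRT1mKO; shapes give the index, lines the mean). FI libraries lie between 1876 and 3015 CPM and Cul and Diff libraries between 5498 and 9603 CPM, with index 1 the higher library in Diff and index 0 in Cul.

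Set against its constitutive partner in the same library, each immunoproteasome subunit had its highest ratios in FI cells. In the table of WT states the partners Psmb5 to Psmb7 had higher levels in WT Cul, while Psmb8, Psmb9 and Psmb10 overlapped between the states. The ratio of FPKM of Psmb9 to Psmb6 was 0.0646 to 0.125 in the 3 WT FI libraries of the FI table. It was 0.116 and 0.0715 in WT FI of the table of WT states, 0.0308 and 0.0226 in WT Cul of that table, and 0.00378 and 0.0062 in WT Cul of the Cul table. No WT Cul library reached the lowest WT FI library. The ratio of Psmb10 to Psmb7 showed the same order, 0.147 to 0.183 and 0.175 and 0.114 in WT FI against 0.0896 and 0.0465 and 0.041 and 0.056 in WT Cul. The ratio of Psmb8 to Psmb5 ran from 0.0963 to 0.857 in WT FI of the FI table, but its highest value, at index 0, has a Psmb5 that is low in that library. In the table of WT states it was 0.579 and 0.42 in WT FI and 0.0922 and 0.0615 in WT Cul. In WT Cul of the Cul table it was 0.00426 and 0.00882. Psmb5 was also low in WT FI of the table of WT states, at 24.2 and 16.0 FPKM. It was at 80.5 and 58.2 FPKM in WT FI index 1 and 2 of the FI table. In WT Cul it was at 148 and 47.0 FPKM in the table of WT states and at 267 and 225 FPKM in the Cul table. Across tables the highest WT Cul ratio (0.0922) lay just under the lowest WT FI ratio (0.0963, index 1 of the FI table). These ratios carry no test, since they span tables.

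**Figure D4:**
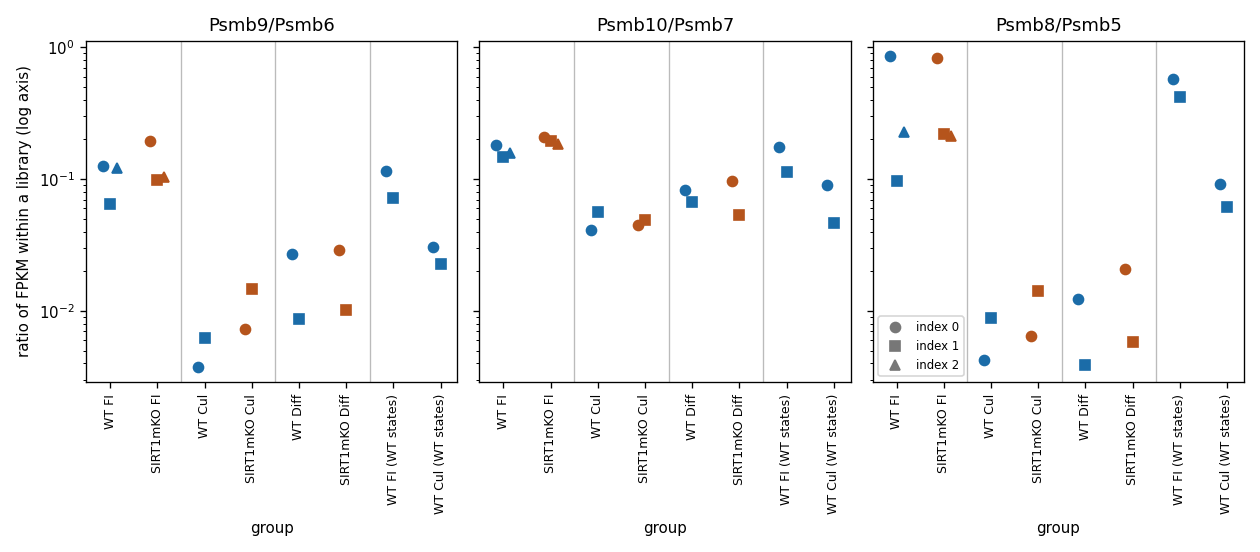
Ratio of FPKM of each immunoproteasome subunit to the constitutive subunit it replaces, in each library (log axis; blue WT, orange SIRT1mKO; shapes give the index). FI libraries lie above Cul and Diff libraries for Psmb9/Psmb6 and Psmb10/Psmb7, with no overlap.

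Genes that work with the proteasome but carry other names moved partly with it. Of 27 tested other proteasome genes (small subunits, receptors, assembly factors, the inhibitor and regulators), 9 passed as higher and 0 as lower, with a median of 1.23, against the 12.6% and 16% of all genes given above, which also stand beside the following lists. Those that passed included Usp14, a ubiquitin-removing enzyme of the cap (2.13 ± 0.354, adjusted p = 0.0169), Uchl5, another such enzyme (2.16 ± 0.395, adjusted p = 0.0199), and the core assembly chaperone Psmg1 (2.23 ± 0.505, adjusted p = 0.0317). Nfe2l1, the factor known to switch on proteasome genes when the proteasome is inhibited, was at 332 to 346 CPM in WT FI and 228 to 350 CPM in WT Cul (-0.23 ± 0.389, adjusted p = 0.685). Of 6 tested genes of the ubiquitin list (ubiquitin, its activating enzymes and ubiquitin ligation), 2 rose and 1 fell. Uba1, the main ubiquitin-activating enzyme, rose (1.34 ± 0.366, adjusted p = 0.0472), as did the ubiquitin gene Rps27a (2.69 ± 0.559, adjusted p = 0.0256), whose near copies make its counts uncertain, while Fbxo32, the muscle atrophy ubiquitin ligase atrogin-1, fell (-2.40 ± 0.403, adjusted p = 0.0173). Of 12 genes of MHC class I presentation, 0 rose, and the interferon factor Irf1 was among those that fell (-3.23 ± 0.359, adjusted p = 0.0104). Tap1 and Tap2, the peptide transporters that lie beside Psmb9 and Psmb8 on chromosome 17 in the annotation of GRCm38.p6, were at 0.56 ± 0.469 (adjusted p = 0.41) and 1.23 ± 0.493 (adjusted p = 0.117).

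Promoters are shown for 3 cap genes that passed as higher in WT Cul (Psmc1, Psmd2 and Psmd11), for Psmb5 and Psmb6, whose higher estimates did not pass, and for Psmb8, whose groups overlapped. RefSeq promoters of build GRCm38.p6 were matched by symbol for 37 of the 44 genes, and the 250 bases before the start were searched on both strands. The expression tables were made on another build, mm9, and give symbols only. The core of the antioxidant response element, TGACNNNGC, which NFE2L1 and NFE2L2 bind, was found in 5 of the 37 (13.5%: Psmb5, Psmb6, Psmc6, Psmd12 and Psmd9) against 14.1% of the 10308 matched genes tested in the comparison of WT states. The ETS core CCGGAAG was found in 12 of the 37 (32.4%) against 14% of those genes and 7.83% of all 27025 symbols, and in 9 of the 12 it lay within 100 bases of the start. The CCAAT box was found in 15 (40.5%, against 40.2% of those genes), the core of the interferon-stimulated response element in 3 (8.11%, against 3.1%), and the gamma-activated core TTCNNNGAA in 1, Psmb8 (2.7%, against 7.21%). The matches are letters in a window, not shown sites. The median log2 fold change was 1.90 for genes with the ETS core and 1.78 for those without, and 1.73 and 1.82 for the antioxidant core. Each line below runs 5′ to 3′ and ends 1 base before the start; capitals mark the antioxidant core in Psmb5 and Psmb6, the ETS core in Psmc1, Psmd2 and Psmd11, and the gamma-activated core in Psmb8.
Psmb5 (chr14:54617996-54618245, minus strand): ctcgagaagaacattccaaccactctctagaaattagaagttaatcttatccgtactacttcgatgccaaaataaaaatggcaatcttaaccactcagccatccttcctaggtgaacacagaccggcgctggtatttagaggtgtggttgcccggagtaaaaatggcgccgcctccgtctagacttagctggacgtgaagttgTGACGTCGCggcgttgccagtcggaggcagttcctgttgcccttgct
Psmb6 (chr11:70525107-70525356, plus strand): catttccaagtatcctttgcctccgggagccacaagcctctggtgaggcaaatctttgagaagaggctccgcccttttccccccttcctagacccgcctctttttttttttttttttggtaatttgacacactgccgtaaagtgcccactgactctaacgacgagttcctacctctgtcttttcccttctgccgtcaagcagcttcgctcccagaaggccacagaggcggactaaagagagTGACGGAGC
Psmc1 (chr12:100109952-100110201, plus strand): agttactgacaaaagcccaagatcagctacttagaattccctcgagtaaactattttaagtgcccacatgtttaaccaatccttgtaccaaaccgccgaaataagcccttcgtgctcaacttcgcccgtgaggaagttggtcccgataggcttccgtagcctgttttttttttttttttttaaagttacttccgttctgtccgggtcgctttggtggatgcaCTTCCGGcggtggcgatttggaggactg
Psmd2 (chr16:20651402-20651651, plus strand): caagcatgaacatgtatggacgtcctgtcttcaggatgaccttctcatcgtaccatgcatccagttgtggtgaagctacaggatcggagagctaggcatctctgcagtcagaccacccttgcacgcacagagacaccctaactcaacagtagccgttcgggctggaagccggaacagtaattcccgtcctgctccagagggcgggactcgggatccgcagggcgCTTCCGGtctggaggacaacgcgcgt
Psmd11 (chr11:80428365-80428614, plus strand): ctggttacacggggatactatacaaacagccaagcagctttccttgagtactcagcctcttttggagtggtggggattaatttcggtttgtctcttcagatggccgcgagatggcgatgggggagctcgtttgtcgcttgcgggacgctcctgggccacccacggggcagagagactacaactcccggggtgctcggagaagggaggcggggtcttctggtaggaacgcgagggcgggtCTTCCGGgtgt
Psmb8 (chr17:34197945-34198194, plus strand): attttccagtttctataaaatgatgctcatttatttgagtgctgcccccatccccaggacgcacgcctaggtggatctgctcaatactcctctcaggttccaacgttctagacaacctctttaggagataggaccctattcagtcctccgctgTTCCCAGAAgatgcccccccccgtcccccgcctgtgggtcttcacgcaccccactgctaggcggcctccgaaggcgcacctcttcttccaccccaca
In Psmb5 the antioxidant core lies at bases -47 to -39 from the start and in Psmb6 at -9 to -1. The ETS core of Psmc1 lies at -28 to -22, that of Psmd2 at -26 to -20 and that of Psmd11 at -11 to -5. The gamma-activated core of Psmb8 lies at -97 to -89.

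SIRT1mKO against WT asks in each state how these genes differ when exon 4 of Sirt1, which encodes a deacetylase, is deleted in cells that express Pax7. No proteasome gene passed in any of the 3 states, and by edgeR no gene of the whole tables did (0% of 15146 in FI, 13963 in Cul and 14482 in Diff). At an unadjusted p under 0.05, 0 proteasome genes were called in each state, against 4.1%, 0.802% and 0.186% of all genes. DESeq2 called 0 proteasome genes in each state, and 65 higher and 49 lower, 0 and 3, and 0 and 0 genes of the whole tables. With the index as a block, edgeR called 0 proteasome genes in each state, and 0, 2 and 131 genes as higher and 0, 1 and 16 as lower. At an unadjusted p under 0.05 that fit had 2 proteasome genes in FI (Psmb4 and Psmd8), 3 in Cul (Psmb9, Psmb8 and Psme1) and 0 in Diff, against 8.13%, 12.1% and 6.31% of all genes. A p that misses the threshold does not show that the genotypes are alike. Summed over the 31 subunits, WT FI was at 2412 ± 550 CPM (SD, n = 3) and SIRT1mKO FI at 2203 ± 288 (n = 3). In Cul the values were 6672 ± 1246 and 7045 ± 1094 (n = 2 each), and in Diff 8126 ± 2088 and 7770 ± 1957 (n = 2 each). The genotypes differed by less than the SD of either group in all 3 states. In Cul and Diff that SD holds a difference between indices that went the same way in both genotypes. Within index 0 and 1, SIRT1mKO was higher for 20 and 27 of 31 subunits in Cul, against 7043 and 7828 of 13963 genes. In Diff it was higher for 8 and 8 of 31, against 7281 and 7204 of 14482 genes. The labels do not say that same-index libraries are paired.

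**Figure D5:**
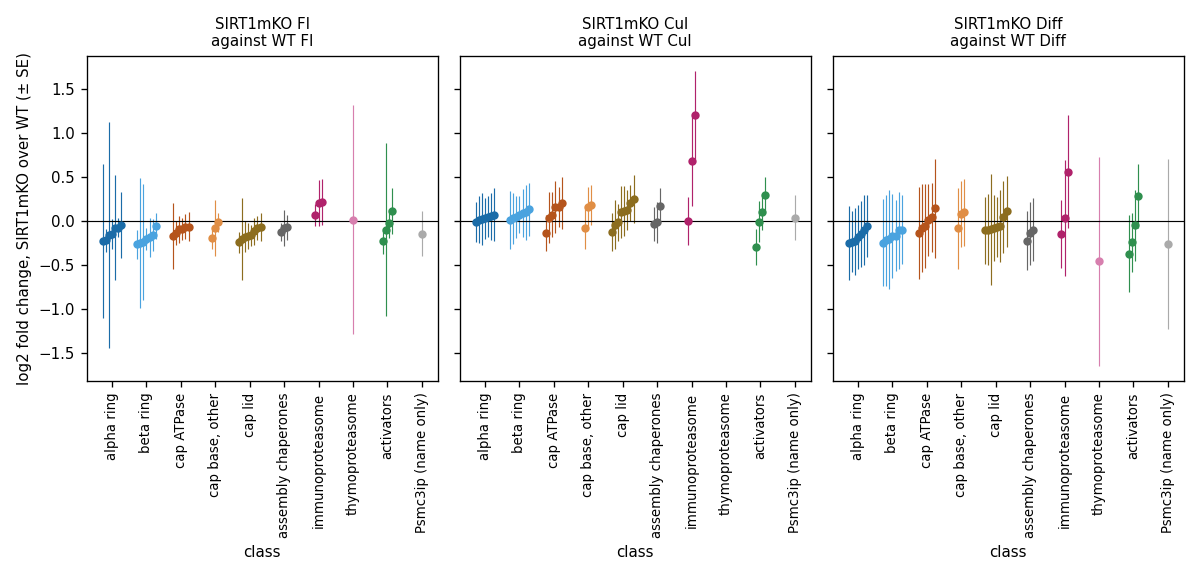
Log2 fold change of each tested proteasome gene in SIRT1mKO over WT with its standard error, by class, in FI (n = 3 and 3), Cul and Diff (n = 2 and 2 each). No point passed the test, the largest estimate is Psmb9 in Cul at 1.21, and the low Psmb11 has standard errors above 1.

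In FI all 31 core and cap subunits had estimates below 0, with a median of -0.16, where 55.3% of all genes tested lay below 0 and 44.7% above. This depended on single libraries: without WT FI index 1, 9 of the 31 lay below 0, and without SIRT1mKO FI index 0, 18 did, with a median of -0.03. Within index 1, SIRT1mKO was lower for all 31 subunits (median -0.31), while it was higher for 11 of 31 within index 0 (median -0.04) and for 18 of 31 within index 2 (median 0.04). Of all 15146 genes, SIRT1mKO was higher for 7334 within index 1, 7542 within index 0 and 7512 within index 2. Without WT FI index 1, whose summed level was the highest of the FI libraries, the median of the 31 was 0.06. The smallest p belonged to Psmd8, at 99.7, 125 and 101 CPM in WT FI and 91.0, 95.7 and 88.1 CPM in SIRT1mKO FI (-0.24 ± 0.117, unadjusted p = 0.0835, adjusted p = 1). Its groups did not overlap, an order that 3 of the 43 genes (Psmd8, Psma7 and Psmd5) and 3.65% of all genes showed. No proteasome gene had all SIRT1mKO FI libraries above all WT FI libraries, where 5.57% of all genes did. Psma7 was at -0.21 ± 0.13 and Psmb4, at 119, 122 and 91.9 against 107, 91.5 and 78.8 CPM, had the lowest estimate at -0.26 ± 0.166 (adjusted p = 1 for each).

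In Cul 32 of the 42 genes had estimates above 0 and 10 below, against 53.2% and 46.8% of all genes, and Psmb9 and Psmb8 had the highest. Psmb9 was at 0.577 and 0.706 CPM in WT Cul and at 1.21 and 1.76 CPM in SIRT1mKO Cul, a log2 fold change of 1.21 ± 0.499 (unadjusted p = 0.0593, adjusted p = 1). Psmb8 was at 1.20 and 2.07 against 1.97 and 3.30 CPM (0.69 ± 0.515, adjusted p = 1), and Psmb10 at 15.8 and 13.3 against 16.6 and 12.6 CPM (0.00 ± 0.272, adjusted p = 1). SIRT1mKO was the higher library within each index for Psmb9 (by 0.67 and 0.90) and for Psmb8 (by 0.54 and 0.56), on the log2 scale. With the index as a block the unadjusted p was 0.0099 for Psmb9, 0.0302 for Psmb8 and 0.0471 for Psme1 (adjusted p = 0.263, 0.358 and 0.408). The groups of Psmb9 did not overlap, nor did those of Psme1 and Psmd8, with SIRT1mKO higher, an order that 11.8% of all genes showed. Psmb8 and Psmb9 were at low levels in these cells, and leukocyte markers summed to 9.18 and 4.06 CPM in WT Cul and to 12.1 and 3.99 CPM in SIRT1mKO Cul. Fibroblast markers summed to 12.2 to 17.2 CPM in WT Cul and to 43.5 to 61.4 CPM in SIRT1mKO Cul, without overlap. The sums of the other cell type lists overlapped between the genotypes in Cul. The part of the fibroblast marker difference in the Psmb8 and Psmb9 values was not tested. Psme1 was at 31.7 and 27.5 against 36.8 and 36.0 CPM (0.30 ± 0.201), and Psme4 had the lowest estimate, at 183 and 171 against 130 and 159 CPM (-0.29 ± 0.206; adjusted p = 1 for each). Psme4 alone had both SIRT1mKO libraries below both WT libraries, where 11.1% of all genes did.

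Psmb9 and Psmb8 had the highest estimates of the 43 genes in FI too, and Psmb8 the highest in Diff, none of which passed. In FI the 3 WT values of Psmb9 given above stood against 9.94, 6.44 and 6.14 CPM in SIRT1mKO (0.22 ± 0.264), and Psmb8 at 15.8, 8.71 and 14.8 against 18.0, 14.3 and 13.0 CPM (0.20 ± 0.264). The libraries of the genotypes overlapped for both. In Diff, Psmb8 was at 3.14 and 2.13 against 5.22 and 2.57 CPM (0.56 ± 0.641). Psmb9 in Diff stood at 3.36 and 1.91 (WT) against 3.49 and 1.90 CPM (0.03 ± 0.661). Psmb10 was at 0.07 ± 0.123 in FI and at -0.15 ± 0.389 in Diff. The adjusted p was 1 for each. The difference of the genotype effect between states was tested directly: 0 of 44 genes passed for Cul minus FI, Diff minus FI or Diff minus Cul (edgeR's quasi-likelihood test over 16698 genes, 0% of which passed). At an unadjusted p under 0.05 the count was 0 of 44 for each, against 1.17%, 1.26% and 1.47% of all genes. With the table and index as a block 0 passed as well, but 3 were under 0.05 unadjusted for Cul minus FI (Psmb11, Psmb9 and Psmd8), 0 for Diff minus FI and 2 for Diff minus Cul (Psmb9 and Psme4), against 5.38%, 5.97% and 7.22% of all genes. For Psmb9 the effect in Cul was 1.02 ± 0.596 above that in FI on the log2 scale (unadjusted p = 0.115, adjusted p = 1), and with the block 1.03 ± 0.38 (unadjusted p = 0.0266, adjusted p = 0.741).

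In Diff the libraries of 1 genotype differed from each other more than the genotypes did. Index 1 was higher than index 0 for 29 of 31 subunits in WT Diff (median 0.50) and for 31 of 31 in SIRT1mKO Diff (median 0.53), while the median over all genes was 0.02 and -0.00. Markers of differentiating muscle summed to 111 CPM at index 0 and 8668 CPM at index 1 of WT Diff, and to 268 and 19193 CPM in SIRT1mKO Diff. Psmb5 was at 166 and 357 CPM in WT Diff and 163 and 290 CPM in SIRT1mKO Diff, and Psmd8 at 327 and 784 and at 341 and 703 CPM. Both were higher at index 1 in both genotypes. Psmc3ip went the other way, from 23.6 to 6.19 CPM and from 20.3 to 4.70 CPM. The part of the marker difference in these values was not tested. Fibroblast markers summed to 40.8 to 51.7 CPM in WT Diff and to 166 to 280 CPM in SIRT1mKO Diff. Satellite cell markers summed to 1702 to 1707 and to 1818 to 2134 CPM. The sums of the other cell type lists overlapped between the genotypes in Diff. The part of these differences in the genotype estimates was not tested. In Diff the highest estimate for SIRT1mKO over WT was that of Psmb8 and the lowest that of Psmb11, at 0.125 and 0.968 against 0.256 and 0.538 CPM (-0.46 ± 1.19, adjusted p = 1). Psmb11, the thymus subunit, lies next to Psmb5 in the annotation and whether some of its few fragments belong to transcripts of its neighbour was not tested. Psme1, at 37.5 and 68.6 against 41.9 and 40.3 CPM, was at -0.37 ± 0.44, and Psme4, at 191 and 169 against 197 and 244 CPM, at 0.29 ± 0.363 (adjusted p = 1 for each). In Diff 33 of the 43 genes had estimates below 0 and 10 above, against 50.8% and 49.2% of all genes. Psme4 alone had both SIRT1mKO libraries above both WT libraries (6.39% of all genes), and Psmd10, Psmd5, Psma6 and Psme2 had them below (6.85% of all genes).

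In Cul the order of the libraries was the reverse of that in Diff. Index 0 was higher than index 1 for 30 of 31 subunits in WT Cul and for 28 of 31 in SIRT1mKO Cul, with medians of -0.42 and -0.37 for index 1 minus index 0. Of all 13963 genes, 6892 and 6483 were higher at index 0, and the medians were 0.0066 and 0.046. Of the 27 other proteasome genes tested, of 6 or 7 genes of the ubiquitin list and of 12 genes of MHC class I presentation, 0 passed in any of the 3 comparisons of SIRT1mKO with WT. Psma8, the germline alpha subunit, was at 0 fragments in all 4 Diff libraries and at no more than 8 in the FI table.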

How the data were processed

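PolyA RNA of sorted or cultured satellite cells was measured in 18 libraries. Per the submitters' processing notes, reads were handled with Bowtie, TopHat and Cuffdiff on mm9, with no versions, and SICER is named for the series. The authors deposited 4 tables with an estimated fragment count (expected count) and an FPKM per gene and library. Estimated counts were rounded to whole numbers, and 1.42% to 8.18% of values above 0 were not whole (tolerance 0.01). Genes with a status other than OK in any library of a table were left out (12 to 27 a table).

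Each table was fitted alone with edgeR 4.0.16 (R 4.3.3), TMM scaling, filterByExpr and the robust quasi-likelihood test, calling genes at 0.05 after Benjamini-Hochberg adjustment across the fitted table. CPM use the TMM scaling. The genotype effect was compared between states over the 3 genotype tables joined. Alternatives were size factors of DESeq2, no filter, DESeq2 1.42.0, limma 3.58.1 on log2(FPKM + 1) and log2(FPKM + 0.1) of genes at 1 FPKM or more, the index as a block, each library left out, and joined WT libraries. The fits were tested on simulated data. No 2 libraries of a group were copies (lowest chi-square per degree of freedom 28.0).

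The tables number libraries by an index with no stated link to the labels' replicate numbers. In FI the deviations of same-index libraries of the 2 genotypes correlated at 0.865, 0.704 and 0.548 across genes (index 0, 1 and 2). SIRT1mKO FI index 1 with WT FI index 2 gave 0.315, and SIRT1mKO FI index 2 with WT FI index 1 gave 0.554. Index 0 of either genotype correlated negatively with the other indices (-0.779 to -0.486). Index 0 thus stands apart in both genotypes, while these values do not settle whether index 1 and index 2 are paired. The printed genotype tests carry no index term, and the fit with the index as a block is given as an alternative. The condition marked A in the tables was taken as Cul, the only state otherwise left without one.

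Genes named with values are Psmb5 to Psmb10 and Psme1 to Psme4, those with the highest and lowest fold change of each class between WT states, and, for each genotype comparison, the 3 with the smallest p and those with the highest and lowest fold change. Libraries left out, neighbours and list examples were chosen after values were seen. Genes and lists were chosen with earlier results of these data known. A result for 1 gene of the list of MHC class I presentation is not reported here.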

Additional observations from a re-analysis of the deposited data

Results flagged for a closer look

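Over 48 sets of WT FI (5 libraries) or WT Cul (4 libraries) values of single genes, with all libraries scaled together, 2 held a library far from the others, both in WT Cul index 0 of the table of WT states. Psmb8 was at 15.03 CPM there and at 1.41 to 3.15 CPM in the other 3 WT Cul libraries. Psmb10 was at 43.7 CPM there and at 13.3 to 18.5 CPM in the others. Chance alone marks about 1 in 20 such sets. The same library had the highest summed level of the 26S subunits and of markers of differentiating muscle among the WT Cul libraries of its table. No difference of the genotype effect between states passed a test.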

How the results depend on the processing

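The limits are set by 2 or 3 libraries a group and by libraries that differ within a group. In all 3 genotype comparisons 0 proteasome genes passed under every alternative run that kept 2 or more libraries a group, the replicate block (table index) included. No adjusted call of a proteasome gene changed under the block there. Unadjusted p-values fell for some of the genes named in the report but not for all. For Psmb11 in SIRT1mKO Diff edgeR's test with the block gave an unadjusted p of 0.988. Its log2 fold change was -0.0136 with the block and -0.457 without it. Under that block 35 genes passed as higher between WT states, against 26 without it. Same-index libraries correlated at 0.445 there and at 0.814 in Cul and Diff. The 2 pairs in each were matched by their index number, and whether they share more is not stated. For the difference between states the replicate block (table and index) left 0 proteasome genes passing.

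Leaving out 1 library at a time, the count of genes higher in WT Cul ran from 0 to 37 and the count lower from 0 to 1. The median log2 fold change ran from 1.29 to 2.18 in that comparison, from -0.20 (without WT FI index 0) to 0.0585 (without WT FI index 1) in SIRT1mKO FI, from -0.11 to 0.28 in SIRT1mKO Cul and from -0.27 to 0.14 in SIRT1mKO Diff. The count of genes lower in WT Cul was 2 between the FI and Cul tables, with or without index 0, where 32.6% and 30.8% of all genes passed as lower. Counts that passed as higher between WT states were 25 with DESeq2's size factors, 30 with no filter, 34 with DESeq2 and 20 with limma at either pseudocount. The share of all genes called is not given for these fits or for the block, so the counts are not set against it.

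Values that changed sign had not passed before. Between WT states Psme1 was at -0.00856 and -0.0117 on the FPKM scales, at -0.19 over all WT libraries, and at -0.35 and, without index 0, -0.57 between the FI and Cul tables, where Psme2 was at -0.0467 without index 0. Psmb10 in SIRT1mKO Cul was at -0.00356 and -0.004495 on the FPKM scales, at -0.00265 under the replicate block and at -0.006005 with DESeq2 and the block. Psmb11 in SIRT1mKO Diff was at 0.0561 with DESeq2 and the block, and Psmb9 in SIRT1mKO FI at -0.0113 without both libraries of index 0. Leaving out 1 library gave ranges that cross 0: between WT states Psmb8 -1.83 to 0.41, Psmb9 -1.34 to 0.68, Psmb10 -0.31 to 1.40, Psme1 -0.67 to 0.65 and Psme2 -0.33 to 1.07; in SIRT1mKO FI Psmb8 -0.0234 to 0.37 and Psmb9 -0.0382 to 0.34; in SIRT1mKO Cul Psmb10 -0.22 to 0.19; in SIRT1mKO Diff Psmb8 -0.0399 to 1.01, Psmb9 -0.47 to 0.51, Psmb10 -0.29 to 0.0116, Psme1 -0.73 to 0.13 and Psmb11 -1.28 to 1.65. The cause of these changes was not tested.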
